A study of Homo sapiens with 23 samples.

Results

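The genes followed here are 10 direct targets of the transcription factor p53, namely CDKN1A, GADD45A, MDM2, SESN1, FAS, BBC3, BAX, TP53I3, RRM2B and ZMAT3. They were chosen by gene symbol as well-known p53 targets, with earlier results of these data known. The other gene lists were also chosen with those results known. Shares of all genes tested that stand beside their counts therefore describe the lists and do not test them. Each of the 10 symbols matched 1 of the 60564 genes listed in every file, so 10 of 60564 genes are described. The 23 mRNA-seq libraries came from 2 established human cell lines, Caco-2 (colorectal adenocarcinoma, 11 libraries) and HepG2 (hepatocellular carcinoma, 12 libraries), which were cultured in the chambers of a microfluidic chip that links a gut and a liver compartment by circulating medium. Each cell line was either alone on the chip (mono-culture) or shared the medium with the other line (co-culture). Each culture was analysed after 1 day with free fatty acids (FFAs, a mixture of palmitic and oleic acid, 1 mM in all) or without them (control). This gave 4 groups per line, with 3 libraries each except the Caco-2 co-culture controls, which had 2. Both lines stand for 1 tumour each, and no group had p53 altered, so p53 status and every other difference between the lines cannot be told apart. The study's methods speak of independent mRNA-seq experiments, but neither they nor the labels say which libraries came from which, so p-values measure the spread between libraries, part of which may be technical.

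p53 is kept scarce in unstressed cells because MDM2, itself a p53 target, marks it for degradation. Damage to DNA or other stress releases p53, which binds a sequence made of a pair of similar half-sites and raises genes that halt the cell cycle, repair DNA or start apoptosis. HepG2 cells are known to carry intact p53, whereas Caco-2 cells are known to have lost functional p53. The question addressed was whether the 10 targets differ between the lines before treatment, and whether FFAs change them in either line.

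Values are TPM, relative transcript abundances that are scaled for gene length, so that levels of different genes can be compared. Differences are on the log2(TPM + 1) scale and were tested with limma, with Benjamini-Hochberg adjustment over all genes tested and a threshold of 0.05. A positive difference between the lines means higher in HepG2. The files give no read numbers, so the depth of the libraries is unknown. The number of genes with a value over 0 ranged from 19259 to 23689. Where a level differed, fewer cells of a type and less RNA per cell cannot be told apart in such bulk samples. Most defining markers matched the labels of both lines. CDX2 and CDH17, an intestinal transcription factor and cadherin, had 60.4 to 136.3 and 353.6 to 479.6 TPM in Caco-2 and at most 0.73 and 2.75 TPM in HepG2. Of the 7 intestinal markers, CDX1 was at 0 or nearly so in both lines (at most 0.18 TPM), KRT20 and LGALS4 overlapped between the lines at low levels, and VIL1 was at 153 to 243.8 TPM in HepG2 as well, against 408.3 to 550.6 TPM in Caco-2. The summed TPM of the 7 was 857.1 to 1140 in Caco-2 and 154.5 to 245 in HepG2. The summed TPM of 6 hepatic markers (ALB, FGA, FGB, APOH, AHSG and AMBP) was 32400 to 51030 in HepG2 and 1880 to 3425 in Caco-2, so Caco-2 also carries hepatic transcripts.

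MDM4, the partner of MDM2 that also holds p53 in check, overlapped between the lines at 3.80 to 8.98 TPM in Caco-2 and 2.32 to 9.03 TPM in HepG2, and its difference of 0.33 in the mono-culture controls did not pass the test (limma, adjusted p = 0.369).

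Promoter sequence was read from RefSeq windows on GRCh38.p14 that run from 250 bases before to 50 bases after a transcript start. Of the 10 genes, 8 had at least 1 window, 16 windows in all. They were searched for the p53 consensus, which is 2 adjoining decamers of 3 purines, C, 2 bases that are A or T, G and 3 pyrimidines. Up to 3 mismatches over the 20 bases were allowed, and the pattern is the same on both strands. MDM2, FAS and SESN1 held a match in at least 1 window. That was 3 of 8 genes and 4 of 16 windows. Among all 27305 genes with a window, 6.39% held a match and 0.82% one with at most 2 mismatches, and among all 35116 windows 5.2% and 0.649%. The stretches are shown because they place the consensus beside a gene that was higher in HepG2 in all 4 conditions (MDM2), beside the gene that was nearly silent in Caco-2 (FAS) and beside a gene that did not differ between the lines past the threshold (SESN1). Capitals mark the matching 20 bases, and each sequence is written 5′ to 3′ on the strand of its gene.
MDM2, chr12:68808893-68809001, plus strand: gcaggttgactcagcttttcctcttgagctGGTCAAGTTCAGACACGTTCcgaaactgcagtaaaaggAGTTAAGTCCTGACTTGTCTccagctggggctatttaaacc
FAS, chr10:88991304-88991333, plus strand: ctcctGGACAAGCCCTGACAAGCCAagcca
SESN1, chr6:109008989-109009067, minus strand: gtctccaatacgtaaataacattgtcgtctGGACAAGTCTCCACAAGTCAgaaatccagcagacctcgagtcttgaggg
The MDM2 stretch holds 2 matches, the first with 2 mismatches and the second with 3, and lies in an intron of the MANE Select transcript of GENCODE v44, where the matches end 74 and 36 bases before the nearer of 2 internal starts. The FAS match had 2 mismatches and ended 102 bases before an internal start, in an intron of the MANE Select transcript and in exons of other FAS transcripts. The SESN1 match had 3 mismatches and ended 29 bases before an internal start, in an intron of the MANE Select transcript and in no annotated exon. The windows of CDKN1A, BBC3, BAX, TP53I3 and ZMAT3 held no match, which says only that these letters are not in those 300 bases. No window was at hand for GADD45A and RRM2B.

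Across all conditions, 6 of the 10 genes (CDKN1A, MDM2, FAS, ZMAT3, RRM2B and BAX) were higher in every HepG2 library than in any Caco-2 library, an order that 14.1% of the 16495 genes tested showed. None of the 10 had every Caco-2 library above every HepG2 library, an order shown by 28.6% of the genes tested. BBC3, TP53I3, GADD45A and SESN1 overlapped between the lines. In the mono-culture controls, 7 of the 10 passed the test as higher in HepG2 and 0 as lower, against 23.4% of all genes tested as higher and 39% as lower. The median difference was 0.88 for the 10 genes and -0.20 for all genes tested. With median-of-ratios scaling that median over all genes became -0.03, the split of all calls moved from 3857 higher and 6429 lower to 4769 higher and 5256 lower, and 8 of the 10 genes passed as higher. Quantile normalization gave 5002 higher and 5185 lower, and again 8 of the 10. The plot of every library below shows the separation gene by gene.

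**Figure D1:**
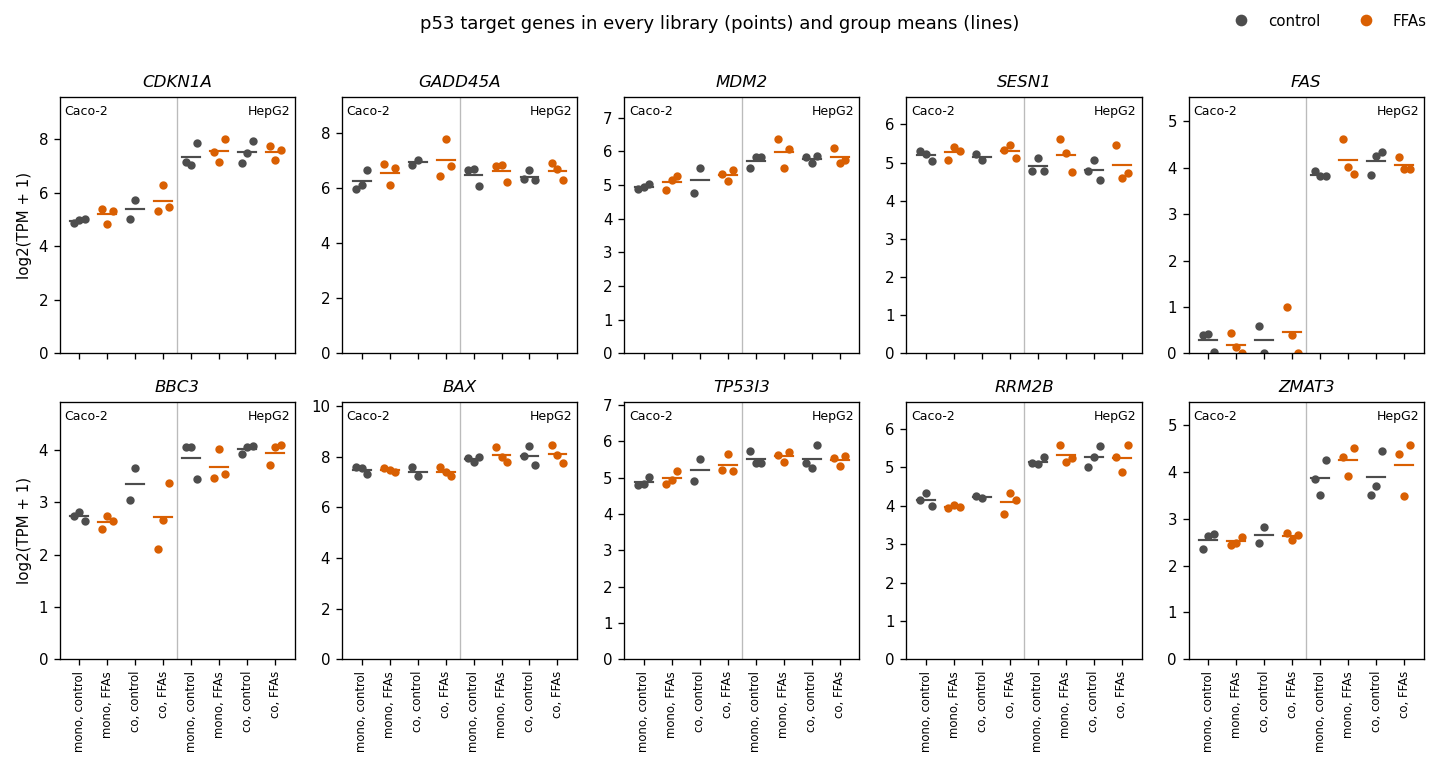
Level of the 10 p53 target genes in each of the 23 libraries, as log2(TPM + 1) on the vertical axis, with the 4 Caco-2 groups left and the 4 HepG2 groups right of the grey line. Points are libraries, short lines are group means, grey is control and orange is FFAs. FAS lies near 0 in all 11 Caco-2 libraries, and control and FFAs points overlap in every panel.

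Of the genes that halt the cell cycle, CDKN1A (GRCh38, chr6:36676460-36687337, plus strand) differed most. It encodes p21, which inhibits cyclin-dependent kinases. The mono-culture controls held 28.2, 30.2 and 31.0 TPM in Caco-2 and 138.8, 129.2 and 232 TPM in HepG2. The HepG2 mean of 166.7 ± 56.8 TPM (SD, n = 3) was 5.59 times the Caco-2 mean of 29.8 ± 1.49 TPM (SD, n = 3), a difference of 2.40 (SE 0.29, adjusted p = 5.66e-07). All 3 HepG2 libraries were above all 3 Caco-2 libraries, although the HepG2 values were widely spread. In the co-culture controls CDKN1A was at 31.7 and 52.5 TPM in Caco-2 and at 137.9, 177.7 and 242.6 TPM in HepG2. With FFAs it reached 41.2, 27.5 and 39.1 TPM in mono-cultured and 38.6, 76.1 and 43.4 TPM in co-cultured Caco-2 cells. The highest Caco-2 library, at 76.1 TPM, stayed below the lowest HepG2 library, at 129.2 TPM. The difference between the lines was 2.12 in the co-culture controls, 2.37 in mono-culture with FFAs and 1.83 in co-culture with FFAs, each past the threshold.

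GADD45A (chr1:67685201-67688334, plus strand), which encodes a small protein that acts in growth arrest and DNA repair, did not follow CDKN1A. The mono-culture controls held 62.3, 67.8 and 101.4 TPM in Caco-2 and 100.9, 103.2 and 66.3 TPM in HepG2, and overlapped. The difference was 0.23 (SE 0.29, adjusted p = 0.519), with a 95% interval from -0.39 to 0.84. In the co-culture controls the 2 Caco-2 libraries, at 115.6 and 130.9 TPM, were above the 3 HepG2 libraries, at 79.7, 99.6 and 77.8 TPM. That difference of -0.53 did not pass the test (adjusted p = 0.177), but did when only these 2 groups were fitted (adjusted p = 0.0204).

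MDM2 (chr12:68808177-68845544, plus strand), which encodes the ubiquitin ligase that degrades p53, passed the test as higher in HepG2 in all 4 conditions. The mono-culture controls held 28.2, 29.9 and 31.7 TPM in Caco-2 and 44.9, 55.7 and 55.6 TPM in HepG2, a difference of 0.77 (SE 0.20, adjusted p = 0.00228). The highest Caco-2 value, 44.6 TPM in a co-culture control, lay just under the lowest HepG2 value of 44.8 TPM. The differences were 0.65 in the co-culture controls, 0.89 in mono-culture with FFAs and 0.54 in co-culture with FFAs. The co-culture control call rested on 1 library, since without Caco-2 co-culture control replicate 1, at 26.1 TPM, the difference was 0.27 (adjusted p = 0.389). In co-culture with FFAs it was 0.40 (adjusted p = 0.12) without HepG2 replicate 1 and 0.45 (adjusted p = 0.0951) without Caco-2 replicate 2. Other genes have exons that overlap those of MDM2. On the same strand AC025423.2 was listed at 26.3 to 61.1 TPM in Caco-2 and 48.6 to 84.0 TPM in HepG2. On the opposite strand CPM had 7.2 to 26.4 TPM in Caco-2 and 0 to 5.25 TPM in HepG2. AC025423.4, also on the opposite strand, had 6.94 to 27.5 TPM and 13.0 to 25.3 TPM. How reads were divided between these genes and MDM2 is uncertain.

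SESN1 (chr6:108984309-109094846, minus strand), which encodes a sestrin, a stress protein that restrains mTORC1, showed no difference past the threshold in any condition. The mono-culture controls held 38.7, 36.6 and 32.2 TPM in Caco-2 and 26.6, 34.1 and 26.4 TPM in HepG2. The difference was -0.30 (SE 0.22, adjusted p = 0.234), with a 95% interval from -0.75 to 0.15. In co-culture with FFAs the difference of -0.37 (adjusted p = 0.146) became -0.64 (adjusted p = 0.0119) without HepG2 replicate 1, which at 43.2 TPM stood above the other two HepG2 libraries of that group, at 23.2 and 25.7 TPM. In mono-culture with FFAs the difference was -0.06 and was above 0 under median-of-ratios scaling (0.16) and under quantile normalization (0.18).

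Of the genes of apoptosis, FAS (chr10:88953813-89029605, plus strand), the death receptor at the cell surface, had the largest difference of the 10. The mono-culture controls held 0.32, 0.34 and 0.02 TPM in Caco-2 and 14.3, 13.1 and 13.1 TPM in HepG2, a difference of 3.57 (SE 0.24, adjusted p = 1.72e-10). FAS was listed at 0 in 3 of the 11 Caco-2 libraries and reached at most 1.01 TPM, whereas HepG2 ranged from 13.1 to 23.5 TPM. None of 6 genes that every cell uses (ACTB, GAPDH, RPLP0, PPIA, TBP and HPRT1) was at 0 in any library. Their lowest value was 29.7 TPM, so they do not show how often a gene near 1 TPM is missed. The difference was 3.85 in the co-culture controls, 3.98 in mono-culture with FFAs and 3.60 in co-culture with FFAs. FAS reached the mean of 1 TPM needed for testing only in its HepG2 groups. Its tests between the lines and its place in the counts therefore rest on those groups. The 1 TPM added before taking logs also bears on the size of its differences.

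The highest FAS values of Caco-2, 0.51 and 1.01 TPM, were in the co-culture libraries numbered 1, control and FFAs. The same 2 libraries had the highest Caco-2 values of the hepatic marker AMBP, at 23.5 and 62.0 TPM against 6.47 to 13.3 TPM in the other Caco-2 libraries, but not of the summed hepatic markers, at 2875 and 3099 TPM. The part of this in the FAS values was not tested. Without the 2 libraries, FAS passed in both co-culture comparisons. FAS also overlaps ACTA2 (smooth muscle actin) on the opposite strand, which had 0 to 6.07 TPM in Caco-2 and 88.8 to 161.4 TPM in HepG2. The library kit is not known to mark strand, so reads of the shared stretch cannot be told apart.

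BBC3 (chr19:47220822-47232766, minus strand) and BAX (chr19:48954815-48961798, plus strand) belong to the BCL2 family and act at the mitochondrion, BBC3 (PUMA) by blocking survival proteins and BAX by opening the outer membrane. BBC3 held 5.69, 6.03 and 5.21 TPM in the Caco-2 and 15.7, 15.6 and 9.82 TPM in the HepG2 mono-culture controls, a difference of 1.12 (SE 0.25, adjusted p = 0.00075). It also passed in the other 3 conditions, with differences of 0.67, 1.04 and 1.23. In the co-culture controls the 2 Caco-2 libraries were at 7.20 and 11.6 TPM, and the call (adjusted p = 0.0485) was lost on leaving out Caco-2 replicate 1 (0.36, adjusted p = 0.412) or any 1 HepG2 library (0.64 to 0.72, adjusted p from 0.0619 to 0.0968). BAX had the highest median level of the 10 genes in both lines, 178.6 TPM in Caco-2 and 250.5 TPM in HepG2. Its mono-culture controls held 190.2, 186.2 and 157.1 TPM in Caco-2 and 249.2, 222.7 and 250.4 TPM in HepG2, which did not overlap, with a difference of 0.44 that did not pass (SE 0.19, adjusted p = 0.0537). It passed under median-of-ratios scaling (0.63, adjusted p = 0.0114) and after quantile normalization (0.62, adjusted p = 0.00628). In the other 3 conditions BAX passed, with differences of 0.63 to 0.68 in co-culture and 0.58 in mono-culture with FFAs. The co-culture control call was lost without Caco-2 replicate 2 (0.44, adjusted p = 0.194) or HepG2 replicate 2 (0.43, adjusted p = 0.0944), and the call in mono-culture with FFAs without HepG2 replicate 1 (0.40, adjusted p = 0.0927).

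TP53I3 (chr2:24077433-24085861, minus strand), a quinone oxidoreductase linked to oxidative stress, differed between the lines in mono-culture. The mono-culture controls held 27.0, 27.6 and 31.2 TPM in Caco-2 and 51.8, 41.6 and 41.3 TPM in HepG2, a difference of 0.63 (SE 0.18, adjusted p = 0.00476). With FFAs in mono-culture it was 0.62 (adjusted p = 0.00549). In co-culture the lines overlapped, and differences of 0.31 in the controls (adjusted p = 0.193) and 0.14 with FFAs (adjusted p = 0.513) did not pass. The co-cultured Caco-2 libraries reached up to 45.0 TPM in the controls and 49.4 TPM with FFAs. The control difference ranged from -0.0014 without Caco-2 replicate 1 to 0.62 without Caco-2 replicate 2, where it passed (adjusted p = 0.0333), and it also passed with median-of-ratios scaling (0.57, adjusted p = 0.0187).

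RRM2B and ZMAT3 passed as higher in HepG2 in all 4 conditions, and these calls were kept on leaving out any 1 library. RRM2B encodes the p53-inducible small subunit of ribonucleotide reductase, which supplies deoxynucleotides for repair and for mitochondrial DNA. It held 16.8, 19.3 and 14.8 TPM in the Caco-2 and 33.4, 33.0 and 37.4 TPM in the HepG2 mono-culture controls, a difference of 0.99 (SE 0.18, adjusted p = 6.76e-05). ZMAT3 (chr3:178960121-179072215, minus strand) encodes a zinc finger protein that binds RNA. It held 4.16, 5.17 and 5.36 TPM in Caco-2 and 13.5, 10.5 and 18.2 TPM in HepG2, a difference of 1.32 (SE 0.26, adjusted p = 0.000236). In the other conditions the difference ranged from 1.05 to 1.34 for RRM2B and from 1.23 to 1.74 for ZMAT3. RRM2B ranged over 12.8 to 19.3 TPM in Caco-2 and 28.6 to 46.8 TPM in HepG2, where the highest library was 1.51 and 1.64 times the lowest. ZMAT3 ranged over 4.16 to 6.14 TPM in Caco-2 and 10.3 to 22.8 TPM in HepG2, or 1.48 and 2.22 times.

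The count of genes higher in HepG2 was the same or nearly so in the other 3 conditions, as the plot of line differences shows. In the co-culture controls 7 of 10 passed as higher, against 19.8% of all genes tested. In mono-culture with FFAs 8 of 10 passed, against 21.8%, and in co-culture with FFAs 7 of 10, against 21.3%. None of the 10 passed as lower in any condition. CDKN1A, MDM2, FAS, BBC3, RRM2B and ZMAT3 passed in all 4 conditions. Without the libraries numbered 3, the counts were 7 in the mono-culture controls, 6 in the co-culture controls, 8 in mono-culture with FFAs and 6 in co-culture with FFAs. Without the 2 Caco-2 co-culture libraries numbered 1, they were 5 in the co-culture controls and 7 in co-culture with FFAs.

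**Figure D2:**
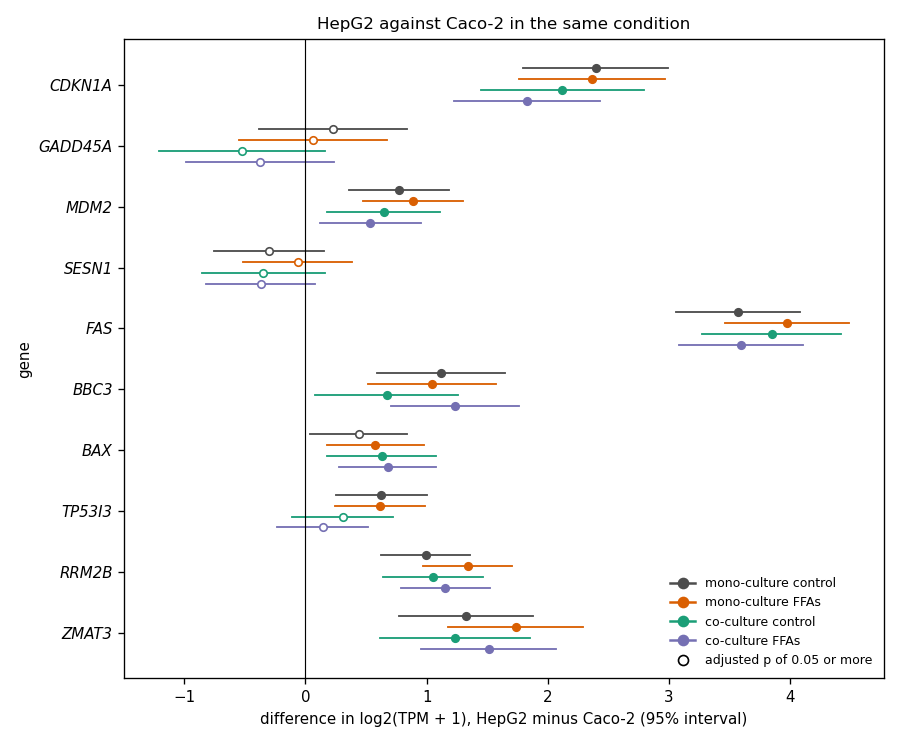
Difference between HepG2 and Caco-2 in log2(TPM + 1) for the 10 genes, with 95% intervals, in mono-culture control, mono-culture FFAs, co-culture control and co-culture FFAs. Filled points passed the adjusted threshold of 0.05 and open points did not. FAS and CDKN1A lie farthest to the right, and the intervals of GADD45A and SESN1 include 0 in all 4 conditions.

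Paralogs and partners of the 10 genes were counted in the same comparison. In the mono-culture controls 0 of 15 tested paralogs and partners passed as higher in HepG2 and 7 as lower, against the 23.4% and 39% of all genes tested. CDKN1B (p27), the relative of CDKN1A, had 5.49 to 13.2 TPM in Caco-2 and 1.42 to 5.30 TPM in HepG2, without overlap, and a difference of -1.08 in the mono-culture controls (adjusted p = 0.0157). SESN3 was at 3.14 to 6.62 TPM in Caco-2 and 0.13 to 0.72 TPM in HepG2, with a difference of -1.95 (adjusted p = 1.06e-07). SESN2, also a p53 target and a target of the amino acid stress response, had 0.83 (adjusted p = 0.121). RRM1, the large subunit of ribonucleotide reductase, had -1.17 (adjusted p = 0.0014), and RRM2, its S-phase small subunit, -0.38 (adjusted p = 0.375). BAK1, which opens the mitochondrial membrane like BAX, had -0.33 (adjusted p = 0.00414), and GADD45B had -0.19 (adjusted p = 0.717). With median-of-ratios scaling the counts were 1 higher and 6 lower and with quantile normalization 2 higher and 6 lower. BAK1 lost its call and PMAIP1 passed as higher under both. Under quantile normalization SESN2 passed and the sign of GADD45B turned. PMAIP1 and SESN2 are also on the list of other p53 targets given next, so the lists are not separate.

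A wider list of 35 other p53 targets held genes higher in either line. In the mono-culture controls 15 passed as higher in HepG2, 9 as lower and 11 did not pass, against 23.4% of all genes tested as higher and 39% as lower, and the median difference was 0.36. The largest positive differences on this list were those of SPATA18 (3.58, mitochondrial quality control), EDA2R (3.17, a receptor of the TNF family), PHLDA3 (2.90, an inhibitor of AKT) and AEN (1.74, an apoptotic exonuclease). The largest negative ones among those that passed were those of BTG2 (-2.52, an antiproliferative protein), DRAM1 (-1.75, autophagy), GLS2 (-1.37, glutaminase), PERP (-0.998, a desmosomal protein) and CMBL (-0.92, a hydrolase). EDA2R and SPATA18 resembled FAS, with at most 0.22 and 1.05 TPM in Caco-2 and at least 7.69 and 7.16 TPM in HepG2, and their highest Caco-2 values were in the co-culture libraries numbered 1. BTG2 went the opposite way, with 69.4 to 303.5 TPM in Caco-2 and 7.83 to 28.0 TPM in HepG2. Across all libraries 13 of the 35 were above in HepG2 and 7 above in Caco-2, against 14.1% and 28.6% of all genes tested, and 15 overlapped. Median-of-ratios scaling gave 18 higher and 8 lower of the 35, and quantile normalization 19 higher and 7 lower.

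**Figure D3:**
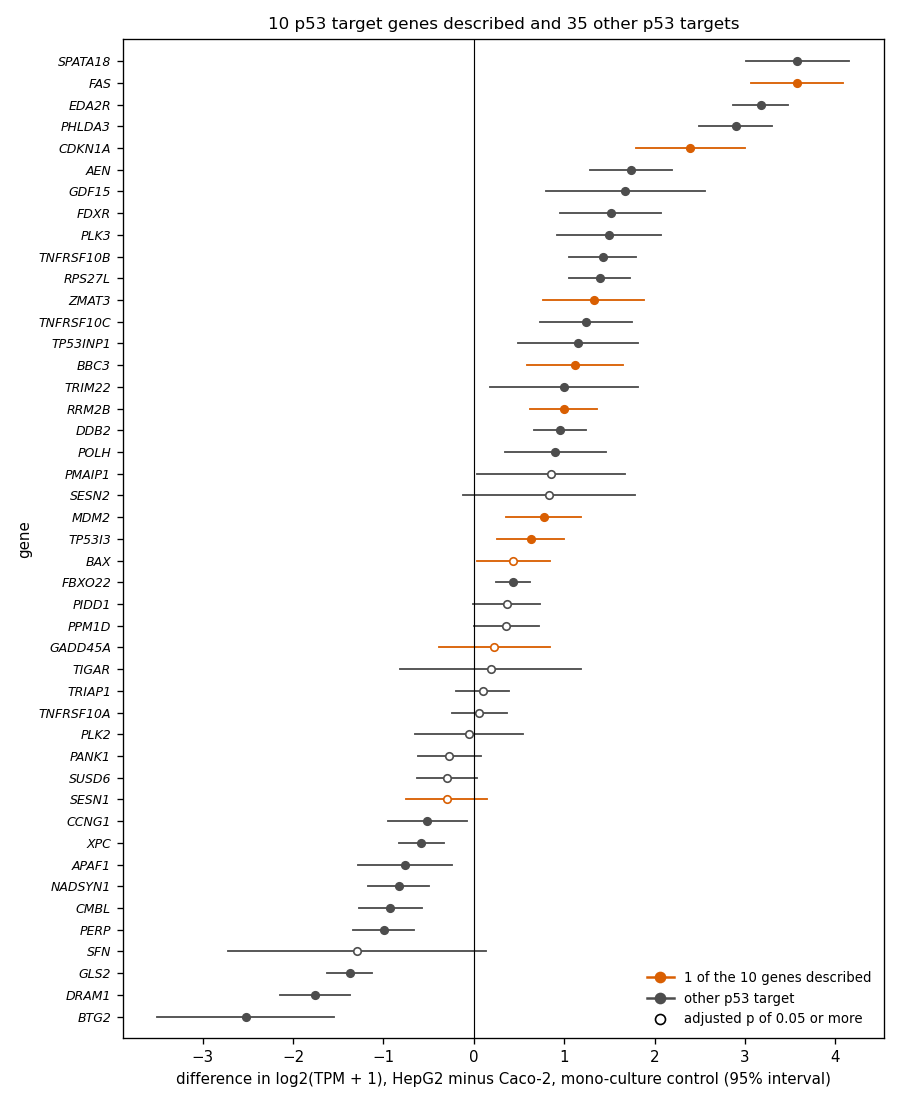
Difference between HepG2 and Caco-2 mono-culture controls in log2(TPM + 1), with 95% intervals, for the 10 genes described (orange) and 35 other p53 targets (grey), ordered by size. Filled points passed the adjusted threshold of 0.05. The 10 genes lie between SESN1 at -0.30 and FAS at 3.57, while the other targets extend from BTG2 at -2.52 to SPATA18 at 3.58.

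Genes around p53 and p21 were counted in the same way. Of 14 tested regulators of p53, 2 passed as higher in HepG2 (HIPK2 at 1.14 and USP7 at 0.82) and 9 as lower, of which CDKN2A (-1.75), CHEK1 (-1.70), PPP1R13L (-1.69), TP53BP1 (-1.49) and RCHY1 (-0.98) had the largest differences. The shares of all genes tested were again 23.4% and 39%. HIPK2 is a kinase that phosphorylates p53 and USP7 a protease that removes ubiquitin from p53 and MDM2. Of 12 cell cycle genes that p53 lowers through p21 and the DREAM complex, 0 passed as higher in HepG2 and 9 as lower, with a median difference of -1.34, against 39% of all genes tested as lower. In the other conditions fewer passed as lower, 6 in the co-culture controls (39% of all genes tested), 7 in mono-culture with FFAs (39.3%) and 6 in co-culture with FFAs (39.7%), with medians of -0.85, -0.87 and -0.70, and 7 of the 12 overlapped between the lines over all libraries. CDK1 (-2.05), CCNB1 (-1.96) and FOXM1 (-1.79) had the largest differences in the mono-culture controls. Under both other scalings of that comparison 8 of the 12 cell cycle genes and 8 of the 14 regulators passed as lower.

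Within HepG2 the 10 genes were not highest in the same libraries. The 6 libraries with the highest CDKN1A, at 183.1 TPM or more, were also the 6 with the highest ZMAT3, at 18.2 TPM or more. They were the 4 libraries numbered 3 and the FFAs libraries numbered 1 of both cultures. GADD45A was lowest in the 4 libraries numbered 3, at 66.3 to 78.1 TPM against 79.7 to 118.9 TPM in the other 8, and SESN1 was at 22.5 to 26.4 TPM there against 23.2 to 47.7 TPM. These 4 libraries also had more genes above 0 TPM, 21588 to 22416 against 19259 to 20873, and a lower summed level of the 12 cell cycle genes, 582 to 859 TPM against 783 to 1627 TPM. In Caco-2 the libraries numbered 3 had 22637 to 23682 genes above 0 TPM. Caco-2 co-culture control replicate 2 had 23689, and the other Caco-2 libraries had 20996 to 22126. The part of this in the levels of the 10 genes was not tested. In Caco-2, CDKN1A, GADD45A, TP53I3 and SESN1 had their highest value in the same library, co-culture FFAs replicate 2, at 76.1, 218.4, 49.4 and 43.4 TPM.

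FFAs changed none of the 10 genes past the threshold in either line. In mono-cultured Caco-2 cells 0 of the 9 genes tested passed (0% of all genes tested), and in co-cultured Caco-2 cells 0 of 9 (0.0199%). FAS was below the minimum mean of 1 TPM in Caco-2 and was not tested there. In HepG2, 0 of 10 passed in mono-culture (0%) and 0 of 10 in co-culture (0%). With both cultures averaged, 0 of 9 passed in Caco-2 (0%) and 0 of 10 in HepG2 (0%). In these 6 comparisons 0 of the genes had an unadjusted p under 0.05. The FFAs libraries overlapped the control libraries for all 10 genes in both lines and cultures. Of all genes tested, 7.13% and 17.2% did not overlap in mono-cultured and co-cultured Caco-2 cells, and 6.47% and 5.42% in HepG2 cells. At such small shares 0 of 10 is close to what all genes showed and does not set the 10 apart.

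The sizes of these differences are shown in the plot of FFAs differences. In Caco-2, averaged over both cultures, CDKN1A had 0.27 (95% interval -0.15 to 0.69), GADD45A 0.19, MDM2 0.15, TP53I3 0.12 and SESN1 0.11. BAX had 0.00, ZMAT3 -0.03, RRM2B -0.16 and BBC3 -0.37 (95% interval -0.82 to 0.09). In HepG2, ZMAT3 had 0.32 (95% interval -0.18 to 0.81), SESN1 0.22, GADD45A 0.18, MDM2 0.15, FAS 0.11, CDKN1A 0.11, BAX 0.09, RRM2B 0.07 and TP53I3 0.03. BBC3 was the only one below 0 in HepG2, at -0.12 (95% interval -0.44 to 0.19). The intervals of BAX and SESN1 in Caco-2, -0.21 to 0.21 and -0.09 to 0.32, were the narrowest. Every interval of these averaged differences included 0. All come from fits without the replicate number, and intervals from fits with it are not given here.

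**Figure D4:**
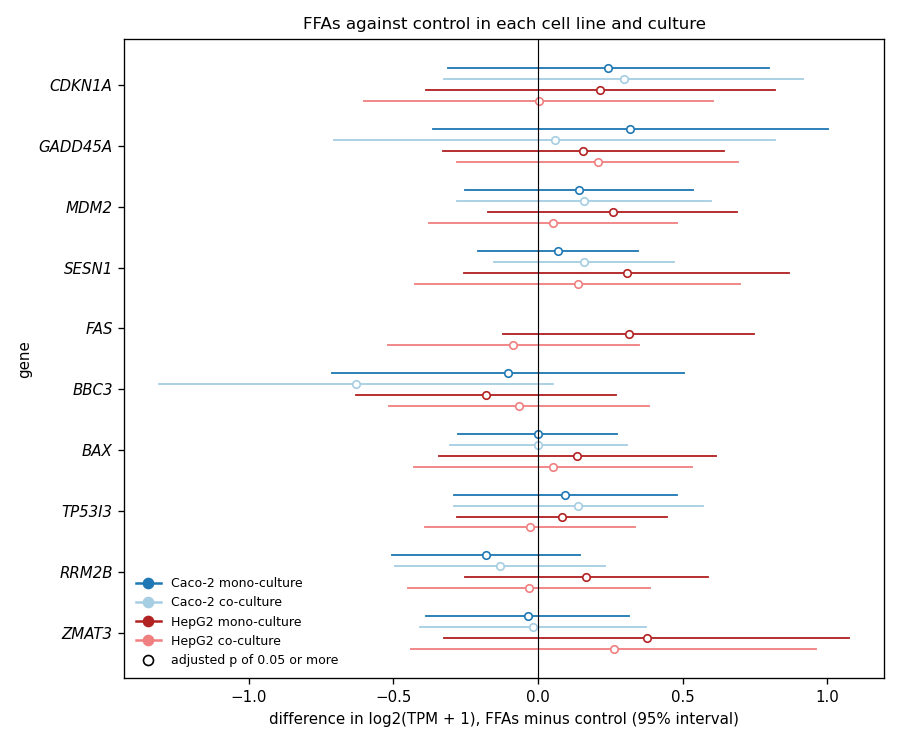
Difference between FFAs and control in log2(TPM + 1) for the 10 genes, with 95% intervals, in mono-culture and co-culture of Caco-2 (blue) and HepG2 (red). Every point is open, since none passed the adjusted threshold of 0.05, and all intervals, from fits without the replicate number, include 0. FAS was not tested in Caco-2.

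BBC3 in co-cultured Caco-2 cells had the largest single FFAs difference of the 10 genes. The 2 controls were at 7.20 and 11.6 TPM and the 3 FFAs libraries at 3.31, 5.33 and 9.38 TPM, which overlap, and the difference was -0.63 (95% interval -1.31 to 0.05, unadjusted p = 0.0671 in limma). CDKN1A had the largest positive difference there, 0.30, GADD45A in mono-cultured Caco-2 cells (0.32), and ZMAT3 in HepG2 cells, 0.37 in mono-culture and 0.26 in co-culture. In mono-cultured HepG2 cells ZMAT3 was at 13.5, 10.5 and 18.2 TPM without and 18.9, 14.2 and 21.9 TPM with FFAs, so the groups overlapped, but each library with FFAs was above the control of the same number. The same held there for CDKN1A, GADD45A and FAS. In co-cultured HepG2 cells it held for GADD45A only. In mono-cultured Caco-2 cells it held for TP53I3 and GADD45A, while RRM2B was lower with FFAs in all 3 same-numbered pairs. Co-cultured Caco-2 cells had only 2 such pairs. CDKN1A, TP53I3, SESN1, BAX and FAS were higher with FFAs in both, and BBC3 was lower in both. The share of all genes with such an order was not counted, so these runs cannot be judged against it. Same-numbered libraries of the 2 mono-cultured HepG2 groups deviated together. With the number as a replicate block 0 of the 10 genes passed there either (0% of all genes tested). ZMAT3 then had 0.37 (SE 0.18, adjusted p = 0.85 in limma) against an SE of 0.32 without the block. MDM2 was at 44.9, 55.7 and 55.6 TPM without and 80.7, 44.8 and 66.2 TPM with FFAs in mono-culture, where the lowest and the highest value both came with FFAs.

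The difference of the FFAs response between the lines was tested directly. In mono-culture 0 of 10 genes passed (0% of all genes tested) and in co-culture 0 of 10 (0.0242%), with 0 at an unadjusted p under 0.05 in both. FAS is counted here, although its Caco-2 group means were under 1 TPM. In mono-culture the values ranged from -0.16 for GADD45A to 0.41 for ZMAT3, with 95% intervals from -1.03 to 0.70 and from -0.37 to 1.19. In co-culture they ranged from -0.29 for CDKN1A to 0.56 for BBC3, with 95% intervals from -1.19 to 0.61 and from -0.23 to 1.36. All 4 intervals reach beyond 1 in size on the log2 scale, so they do not exclude a differing response of that size in that direction.

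Co-culture also left the 10 genes within the adjusted threshold. Averaged over both treatments, 0 of 9 passed in Caco-2 (0% of all genes tested) and 0 of 10 in HepG2 (0.0561%). In Caco-2, 3 of the 9 had an unadjusted p under 0.05, all higher in co-culture, namely GADD45A (0.57, adjusted p = 0.439), CDKN1A (0.47, adjusted p = 0.436) and TP53I3 (0.35, adjusted p = 0.405), while BAX had the lowest value (-0.06). Of all 15081 genes tested in Caco-2, 1578 had an unadjusted p under 0.05. All 6 hepatic markers were on average higher in co-cultured than in mono-cultured Caco-2 cells, with a sum of 2623 to 3425 TPM against 1880 to 3075 TPM, and their part in the values of the 10 genes was not tested. In the controls, the 2 co-culture libraries lay above the 3 mono-culture libraries for CDKN1A, GADD45A and BBC3, and 23.1% of all genes tested did not overlap in this comparison. With FFAs only TP53I3 did so, at 36.2, 49.4 and 35.4 TPM against 27.4, 29.7 and 35.0 TPM, with 9.32% of all genes tested not overlapping. In HepG2 the values ranged from -0.18 for SESN1 to 0.22 for BBC3, with 0 at an unadjusted p under 0.05. With the replicate block, 3.45% of all genes tested passed in HepG2 (492 against 8 without it), and 0 of the 10. SESN1 was lower in co-culture in all 3 same-numbered pairs, in the controls as well as with FFAs. With FFAs TP53I3 was also lower and BBC3 higher in all 3 pairs. In Caco-2, TP53I3 and ZMAT3 were higher in co-culture in both control pairs and in all 3 FFAs pairs. CDKN1A, GADD45A and BBC3 were higher and SESN1 lower in both control pairs of Caco-2, but not in all 3 FFAs pairs. The share of all genes with such an order was not counted. All 10 genes overlapped between the cultures in HepG2. Of all genes tested, 14.9% in the controls and 9.6% with FFAs did not, so 0 of 10 does not set the 10 apart.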

How the data were processed

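mRNA-seq of 11 Caco-2 and 12 HepG2 libraries (poly(A) RNA, SMART-Seq v4) was analysed from the TPM the authors deposited, 1 table per library. According to the study's methods and the submitters' processing notes, Bowtie2 2.1.0 served to discard rRNA, tRNA and mitochondrial reads, STAR 2.7.1a aligned the others to GRCh38 (Ensembl 98), and TPM came from RSEM 1.3.0. The labels give medium with serum during treatment, the methods serum-free medium. TPM hold no counts, so count models were not used and no counting error is given.

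log2(TPM + 1) was fitted with limma 3.58.1 (R 4.3.3, trend), after dropping genes whose mean was under 1 TPM in all groups, with Benjamini-Hochberg over all genes tested. Differences between the lines and between their FFAs responses came from 1 fit of all 8 groups, FFAs and culture differences from a fit per line. Same-numbered libraries had correlated deviations from their group means (every r over 0.1) in 4 of 6 pairs of HepG2 groups and 0 of 6 of Caco-2 (r from 0.03 to 0.60 and from -0.09 to 0.31). By single pairs of libraries, r was over 0.1 in 15 of 18 same-numbered and 7 of 36 other pairs of HepG2. In Caco-2 it was over 0.1 in 7 of 15 same-numbered and 6 of 30 other pairs. The numbers come from the titles, which do not say that they mark a batch. limma was tested on simulated data. Alternatives are in the closing section. All 10 genes are given in every comparison, by values, ranges or counts. Some genes of the other lists are not reported here. MDM4 is given with its levels, and 7 paralogs beside their relatives. From the other lists, up to 5 genes per direction that passed are named. The 10 genes and the lists were chosen with earlier results of these data known. Python 3.11.15 and matplotlib 3.10.9 were used for the sequences and plots.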

Additional observations from a re-analysis of the deposited data

How the results depend on the processing

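The number of the 10 genes called stayed within 1.5 times the value reported in all 14 comparisons under a pseudocount of 0.1 TPM, median-of-ratios scaling, quantile normalization, no filter, limma without its trend, a fit restricted to the groups compared, the replicate block, leaving out any 1 library, and 2 alternatives chosen after seeing the data (without the libraries numbered 3, and without the Caco-2 co-culture libraries numbered 1). Where the value reported was 0, at most 8 of all genes tested were called, so the count had little room to move. The limit also allowed the loss of the MDM2 and BBC3 calls in the co-culture controls without Caco-2 replicate 1. Leaving out the libraries numbered 3 kept Caco-2 co-culture control replicate 2, and the replicate block placed it with the libraries numbered 2. Its number of genes above 0 TPM, 23689, was like that of the Caco-2 libraries numbered 3. Depth is unknown, so the limit of detection is too.

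With the replicate block, 8 of the 10 genes were called in the mono-culture controls, adding BAX (0.44, adjusted p = 0.0124). The counts of the 10 genes in the other 13 comparisons did not change with the block, while calls over all genes between the cultures rose from 0 to 60 in Caco-2 and from 8 to 492 in HepG2.

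Calls between the lines that changed beyond those given with each gene were those of BBC3 in the co-culture controls (0.73, adjusted p = 0.0584 with a pseudocount of 0.1 TPM, and 0.67, adjusted p = 0.093 without a filter), TP53I3 there with quantile normalization (0.56, adjusted p = 0.0221), MDM2 and BAX there with only the groups compared (adjusted p = 0.0531 and 0.0676), MDM2 there without the libraries numbered 3 (0.60, adjusted p = 0.0839), BAX in the mono-culture controls with only the groups compared (0.44, adjusted p = 0.00665), and MDM2 in co-culture with FFAs without a filter (0.54, adjusted p = 0.0532) and without the libraries numbered 3 (0.66, adjusted p = 0.0644). The cause was not tested.

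Values below the threshold that changed sign were these. Between the lines, SESN1 in mono-culture with FFAs was 0.16 with median-of-ratios scaling, 0.18 with quantile normalization and 0.19 without the libraries numbered 3, and TP53I3 in the co-culture controls was -0.0014 without the Caco-2 co-culture libraries numbered 1. Of the FFAs differences in Caco-2, BAX was -0.0195 with median-of-ratios scaling and -0.0036 with quantile normalization, and MDM2 was -0.0419 and TP53I3 -0.0045 without the Caco-2 co-culture libraries numbered 1. FAS with FFAs in co-cultured HepG2 cells was 0.0489 without the libraries numbered 3.

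On leaving out 1 library, these values below the threshold changed sign among those given in the text. Other small FFAs and culture differences of the 10 genes that are covered by counts only did so too, such as MDM2 with FFAs in co-cultured Caco-2 cells (-0.21 to 0.53). Between the lines, TP53I3 in the co-culture controls ranged from -0.0014 to 0.62, GADD45A from -0.17 to 0.27 in mono-culture with FFAs and from -0.65 to 0.0048 in co-culture with FFAs, and SESN1 in mono-culture with FFAs from -0.26 to 0.16. Of the FFAs differences in Caco-2, CDKN1A in co-culture ranged from -0.059 to 0.65, and averaged over cultures MDM2 from -0.0359 to 0.34, GADD45A from -0.0028 to 0.33, TP53I3 from -0.0387 to 0.27, ZMAT3 from -0.12 to 0.0635 and BAX from -0.0943 to 0.0945. In HepG2, FAS in co-culture ranged from -0.24 to 0.0089, and averaged over cultures TP53I3 from -0.0351 to 0.12, RRM2B from -0.0147 to 0.16 and BAX from -0.0015 to 0.19. The difference between cultures of BAX in Caco-2 ranged from -0.16 to 0.0312, and the difference of the FFAs response between the lines from -0.40 to 0.0417 for GADD45A in mono-culture and from -0.65 to 0.0621 for CDKN1A in co-culture.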
